A study of Homo sapiens with 8 samples.

Results

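Transcript levels of 5 genes of lipid mediator synthesis and tryptophan breakdown, PTGS1, PTGS2, PTGES, ALOX5AP and KYNU, were examined in 8 human breast cell cultures. They are 5 of the 16922 genes named on the array, and they were taken as all 7 probes that the platform annotation gives to these symbols: ILMN_2339835 and ILMN_1665100 for PTGS1, ILMN_2054297 for PTGS2, ILMN_1713829 for PTGES, ILMN_1797875 for ALOX5AP, and ILMN_1746517 and ILMN_1737514 for KYNU. The set was chosen for the low PTGES and KYNU readings of the array labelled IRX5, so those differences are given as a description. The series was made to look for targets of Foxq1 and IRX5 and to compare basal-like breast cancer lines, with total RNA on Illumina bead arrays, 1 array for each culture. The breast cancer line SUM159 was profiled with a stable IRX5 transgene (an Iroquois homeobox factor), with stable LacZ (bacterial beta-galactosidase, the control) and untransfected. HMLE, an immortalized human mammary epithelial line, was profiled with stable Foxq1 (a forkhead factor), Gcnt2 (a glycosyltransferase that branches sugar chains) or LacZ, and SUM1315 and MDA-MB231, like untransfected SUM159, carried no transgene. Which species and promoter each transgene has, and whether a line is a clone or a pool, is not stated in the labels.

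The authors' quantile-normalized intensities had medians between 159.7 and 159.9 in the 8 arrays, and between 10261 and 10600 genes lay above a detection limit of 143, which was derived from the spread of the dimmest probes. Folds and log2 differences were taken after a further background correction, so they can be larger than the ratio of the 2 printed intensities. Where the dimmer array was below the limit it was set at the limit and the fold is written "at least", a bound on that corrected scale only. Each culture has 1 array, so nothing below was checked in a replicate and no p-value was computed. The LacZ and untransfected SUM159 arrays, which differ by the LacZ transfection on their labels, gave a standard deviation of 0.47 on the log2 scale over all genes compared, and this is used as a yardstick. The transgene probes went against 2 labels. The single IRX5 probe read 151 in the array labelled IRX5, against 165 in SUM159/LacZ and 163 in untransfected SUM159, and the single FOXQ1 probe read 299 in the array labelled Foxq1, against 1641 in HMLE/LacZ. The IRX5 probe read 1216 in SUM1315. The GCNT2 probe ILMN_1666986 went with its label, at 9104 in HMLE/Gcnt2, against 106 in HMLE/LacZ. The other GCNT2 probes were below the limit in both of these arrays. Whether the IRX5 and FOXQ1 probes lie within the introduced sequences is not stated in the labels. Directions given for the arrays labelled IRX5 and Foxq1 rest on their labels. In the array labelled Foxq1, 90 of 649 genes (13.9%) with 2 or more bright probes had probes whose differences from HMLE/LacZ lay over 4-fold apart, against 0 of 613 for HMLE/Gcnt2. Of 7 epithelial markers with a probe, 6 were above the limit in the array labelled Foxq1, 7 in HMLE/Gcnt2 and 7 in HMLE/LacZ. In the array labelled Foxq1, CDH1, CLDN7 and KRT18 were nevertheless at least 2-fold lower than in HMLE/LacZ. The basal keratins KRT5 and KRT14 were below the limit in all 5 arrays of the cancer lines.

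Prostaglandins are made from arachidonic acid, which phospholipases free from membranes. The cyclooxygenases PTGS1, present in many cells at rest, and PTGS2, induced by cytokines and growth factors, turn it into prostaglandin H2, and PTGES, the inducible membrane-bound prostaglandin E synthase, turns that into prostaglandin E2, which acts on the receptors PTGER1 to PTGER4. ALOX5AP hands arachidonic acid to the lipoxygenase ALOX5 for leukotriene synthesis and is best known from myeloid cells. KYNU (kynureninase) cleaves kynurenine and its hydroxylated form in the tryptophan breakdown that IDO1 or TDO2 begins. In breast cancer, PTGS2 and prostaglandin E2 are known for links with invasion and inflammation.

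The upstream sequences of PTGES and KYNU are printed because these genes were low together in the array labelled IRX5. That of PTGS2 is printed beside them. PTGS2 lay at the detection limit in the SUM159 arrays, so a decrease could not be measured and it is no contrast to them. Each run is the 250 bases before the start, 5′ to 3′ on the strand of the gene, from RefSeq (GRCh38.p14), and all 5 genes had an entry. Capitals mark matches on either strand. The letters searched were TATAAA for the TATA box and GGGCGG for the GC box. The EGR1 site was searched as GCGTGGGCG and the AP-1 site as TGANTCA. The core of the cyclic AMP response element was CGTCA, and the forkhead core was TGTTTAC. The Iroquois site, known from Drosophila, was ACANNTGT, and the gamma-activated sequence was TTCNNNGAA. The NF-kB consensus was GGGRNNYYCC, where R is A or G, Y is C or T and N is any base.
PTGES, chr9:129753043-129753292, minus strand: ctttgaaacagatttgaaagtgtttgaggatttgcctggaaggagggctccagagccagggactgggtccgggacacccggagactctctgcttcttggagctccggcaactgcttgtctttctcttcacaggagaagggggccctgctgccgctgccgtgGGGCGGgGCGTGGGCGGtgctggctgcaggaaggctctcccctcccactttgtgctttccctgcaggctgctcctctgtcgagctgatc
KYNU, chr2:142877414-142877663, plus strand: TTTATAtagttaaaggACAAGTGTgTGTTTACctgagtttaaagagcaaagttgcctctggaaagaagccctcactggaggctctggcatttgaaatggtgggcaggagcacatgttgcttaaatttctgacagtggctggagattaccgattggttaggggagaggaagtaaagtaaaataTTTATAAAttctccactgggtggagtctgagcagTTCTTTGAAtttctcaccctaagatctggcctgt
PTGS2, chr1:186680424-186680673, minus strand: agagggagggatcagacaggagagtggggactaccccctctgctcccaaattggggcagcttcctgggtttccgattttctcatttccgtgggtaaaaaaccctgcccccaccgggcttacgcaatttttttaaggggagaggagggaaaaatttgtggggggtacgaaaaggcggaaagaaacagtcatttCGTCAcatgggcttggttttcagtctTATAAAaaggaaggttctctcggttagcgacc

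The PTGES window held 2 GC boxes and an EGR1 match that overlaps one of them, and no TATAAA. Of 35116 promoters of the same length, 42.6% held a GC box and 0.72% the EGR1 letters. The KYNU window held TATAAA 66 bases before the start, overlapped by a match on the other strand, and a second such match at its upstream end. It also held an Iroquois match, a forkhead match and a gamma-activated sequence, which 4.71%, 2.98% and 6.57% of all promoters held. The PTGS2 window held TATAAA 32 bases before the start and 1 CGTCA, found in 10.7% and 21.2% of promoters. None of the 3 windows held an AP-1 or NF-kB match (6.57% and 9.96% of promoters), which says only that these letters are not there. A run that departs from the NF-kB letters at 1 base, such as gggactaccc in the PTGS2 window, was not counted. GC content was 61.2% for PTGES, 42.4% for KYNU and 50.4% for PTGS2, against a median of 58% over all promoters. A match is a description of the letters and not a site of binding.

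PTGES had the widest range of the 5 genes, 26.5 times between its lowest and highest intensity. It read 189 in the array labelled IRX5, against 941 in SUM159/LacZ and 1039 in untransfected SUM159. The array labelled IRX5 was thus far below both controls, which stood close to each other (log2 difference -0.15, LacZ minus untransfected). It was 5.77-fold lower than in LacZ (log2 difference -2.53) and 6.39-fold lower than in untransfected SUM159 (-2.68). PTGES read 4999.9 in the array labelled Foxq1 and 1313 in HMLE/Gcnt2, against 1469 in HMLE/LacZ, the highest readings of the series. It read 243 in SUM1315 and 189 in MDA-MB231, so the reading of the array labelled IRX5 stood at the level of the other cancer lines. The gap between HMLE/LacZ and HMLE/Gcnt2 (0.17), and those from HMLE/Gcnt2 to untransfected SUM159 (0.35) and from SUM1315 to the array labelled IRX5 (0.42), were smaller than the 0.47 yardstick.

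**Figure D1:**
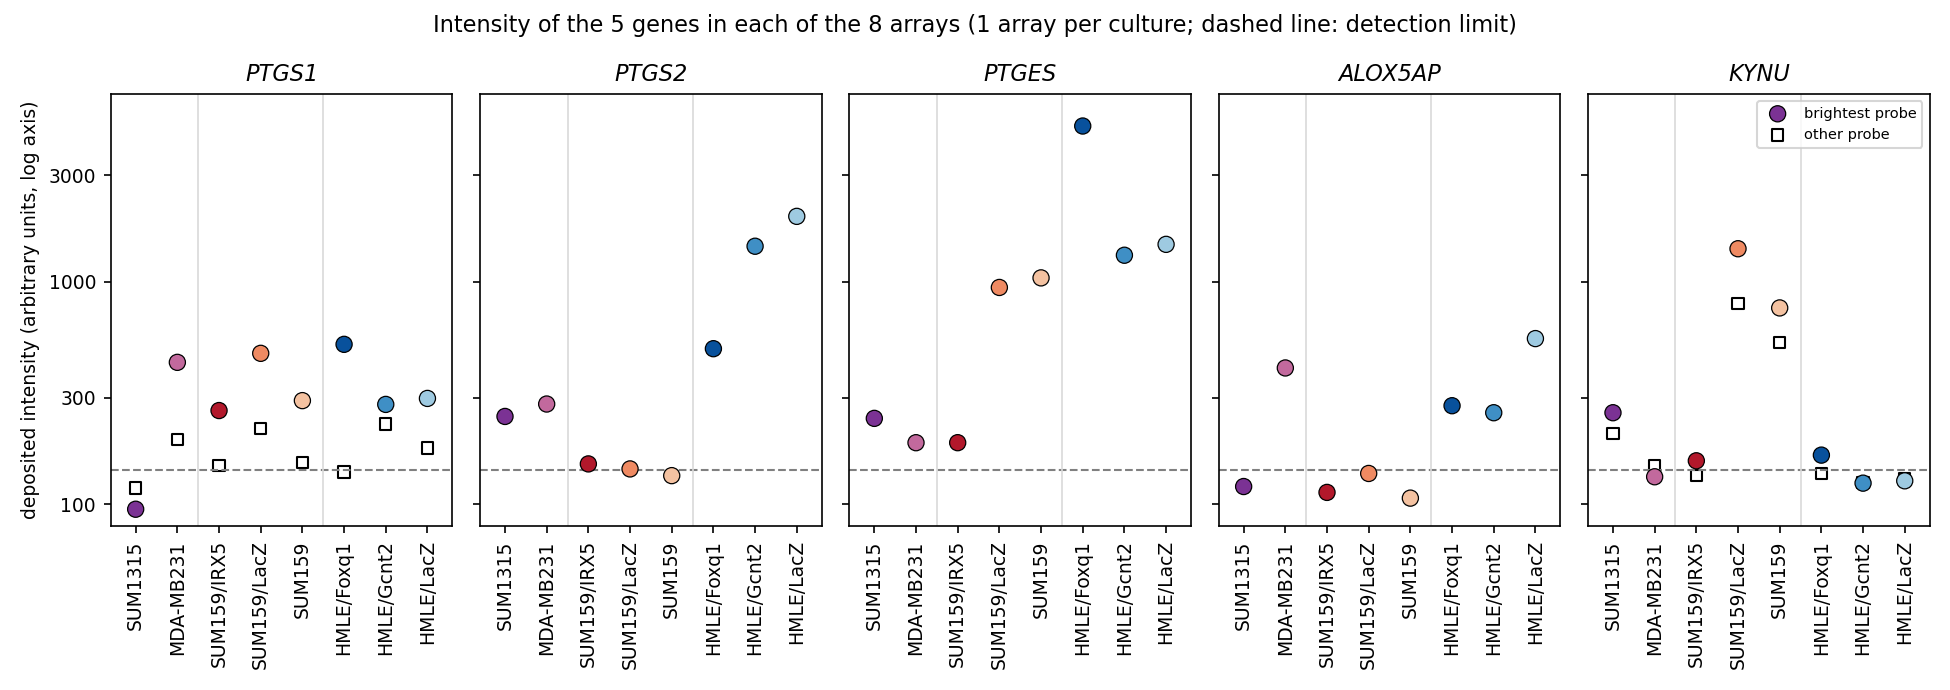
Deposited intensity (log axis) of PTGS1, PTGS2, PTGES, ALOX5AP and KYNU in the 8 arrays, with circles for the brightest probe, open squares for the other probe of PTGS1 and KYNU, and a dashed line at the detection limit of 143. PTGES and KYNU are low in the array labelled IRX5 (189 and 156) and high in both SUM159 controls, PTGS2 is high in the HMLE arrays, and KYNU is high in SUM159/LacZ (1404) and untransfected SUM159 (761).

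KYNU was bright in 2 arrays only, both of them SUM159 controls. Its brightest probe read 156 in the array labelled IRX5, against 1404 in SUM159/LacZ and 761 in untransfected SUM159. That is 10.9-fold lower than LacZ and 5.82-fold lower than untransfected SUM159 (log2 differences -3.45 and -2.54). Its other probe read 135 in the array labelled IRX5, below the limit, against 798 and 533, at least 6.86-fold and at least 4.49-fold lower. The controls themselves stood 1.88-fold apart (0.91, higher in LacZ), which is more than the yardstick and much less than their distance to the array labelled IRX5. Outside SUM159 the brightest probe read 257 in SUM1315, 166 in the array labelled Foxq1, 133 in MDA-MB231, 127 in HMLE/LacZ and 124 in HMLE/Gcnt2, the last 3 below the limit. The second probe gave a similar order (rank correlation 0.93, Pearson's r 0.992 over the 8 arrays, a description of arrays that share cell lines). With that probe MDA-MB231 read 149, above the limit.

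PTGES and KYNU were 2 of the 4 genes of the set that could be compared in the array labelled IRX5, and both were at least 2-fold lower than each control. None was 2-fold higher. Across all genes, 3.14% were at least 2-fold apart from LacZ, 1.17% higher and 1.97% lower (213 of 10803). From untransfected SUM159, 6.38% were apart, 3.01% higher and 3.37% lower. Beyond both controls, 0.823% were lower (92 of 11174) and 0.725% higher. Ordered by the difference to the nearer control, KYNU was 5th and PTGES 6th lowest of 11174 genes. They were picked for this, and both comparisons use the same IRX5 array. Over all 8 arrays the 2 genes did not run together: r was 0.09, since PTGES was bright and KYNU near the limit in the HMLE arrays.

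**Figure D2:**
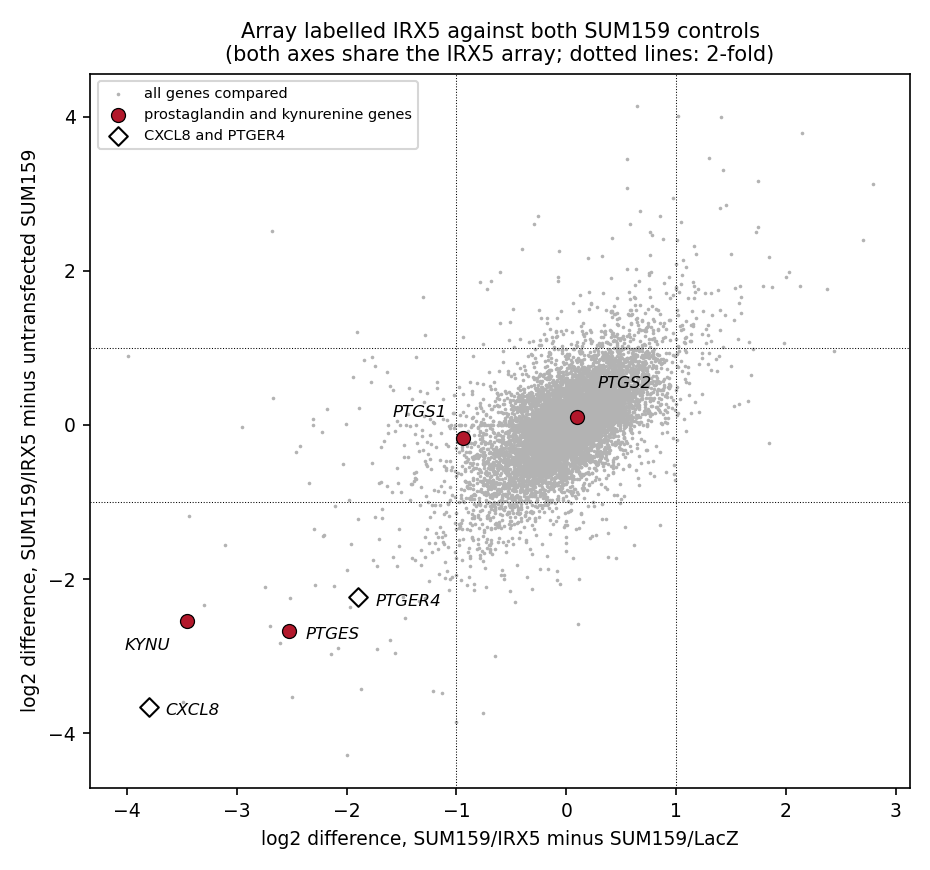
Log2 difference of each gene between the array labelled IRX5 and SUM159/LacZ (horizontal) and untransfected SUM159 (vertical), with red points for the genes of the set, diamonds for CXCL8 and PTGER4, grey points for all 11174 genes compared and dotted lines at 2-fold. Both axes share the IRX5 array; KYNU and PTGES lie in the lower left corner near CXCL8 and PTGER4, and PTGS1 and PTGS2 lie within 2-fold.

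Neither cyclooxygenase was 2-fold apart from a SUM159 control in the array labelled IRX5. PTGS2 read 151 in the array labelled IRX5, against 144 in SUM159/LacZ and 134 in untransfected SUM159. All 3 readings lie at the limit, so a decrease could not be measured in this line. PTGS2 was instead a gene of the HMLE arrays, with 499 in the array labelled Foxq1 and 1441 in HMLE/Gcnt2, against 1963 in HMLE/LacZ, and it read 248 in SUM1315 and 282 in MDA-MB231. SUM159/LacZ, whose reading is at the limit, was 17.1-fold below HMLE/LacZ.

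PTGS1 stayed dim throughout. Its brightest probe read 263 in the array labelled IRX5, against 476 in SUM159/LacZ and 292 in untransfected SUM159. The array labelled IRX5 was 1.92-fold below LacZ and only 1.12-fold below untransfected SUM159. The HMLE arrays read 522 (labelled Foxq1) and 280.4 (Gcnt2), against 298 (LacZ), while MDA-MB231 read 433 and SUM1315 94.8, below the limit. The other PTGS1 probe ranged from 118 in SUM1315 to 229 in HMLE/Gcnt2 and followed the brighter one poorly (r of 0.58 over 8 arrays). It read 139 in the array labelled Foxq1, below the limit, against 179 in HMLE/LacZ, opposite in direction to the brighter probe, so the direction of PTGS1 there is uncertain.

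ALOX5AP was above the limit in 4 arrays. It read 277 in the array labelled Foxq1 and 257 in HMLE/Gcnt2, against 554 in HMLE/LacZ, and MDA-MB231 read 409. The other readings were 113 in the array labelled IRX5, against 137 in SUM159/LacZ and 106 in untransfected SUM159, and 120 in SUM1315, so no fold was formed within SUM159. Of 9 leukocyte markers, 4 were above the limit in the array labelled Foxq1 and 4 in HMLE/Gcnt2, against 3 in HMLE/LacZ, and 4 were above it in MDA-MB231. Their summed intensity was 3142 in the array labelled Foxq1 and 1866 in HMLE/Gcnt2, against 2146 in HMLE/LacZ, and 2915 in MDA-MB231. The lysosomal protein LAPTM5 read 1097 in MDA-MB231, against 323 in untransfected SUM159, and CD14 read 1574 in the array labelled Foxq1 and 383 in HMLE/Gcnt2, against 645 in HMLE/LacZ. PTPRC (the leukocyte phosphatase CD45) was above the limit only in HMLE/Gcnt2 (146), and CD3E, ITGAM and TYROBP were below it in all 8 arrays. The part of such cells in the ALOX5AP readings was not tested.

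**Figure D3:**
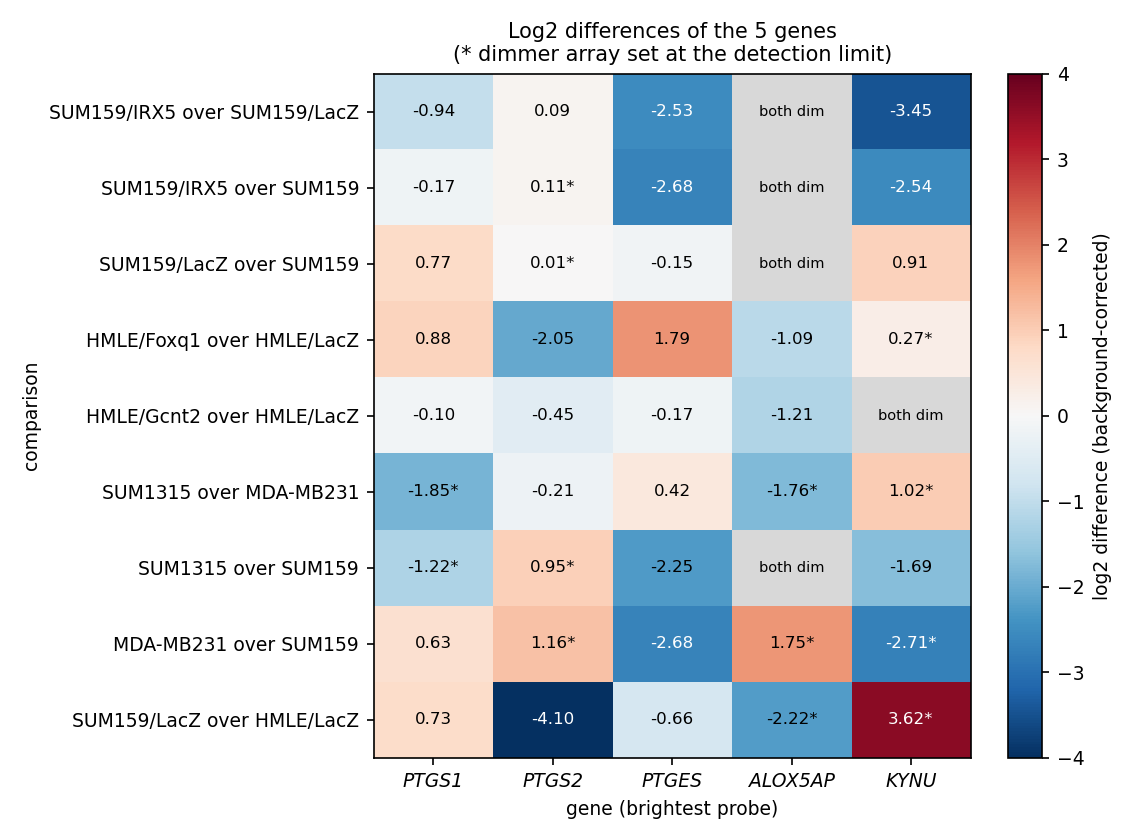
Log2 difference of the 5 genes (columns) in the 9 comparisons (rows), red for higher and blue for lower in the array named first; an asterisk marks a dimmer array set at the detection limit and grey cells had both arrays below it. PTGES and KYNU are lower in the array labelled IRX5 than in either control, the array labelled Foxq1 has more PTGES and less PTGS2 than HMLE/LacZ, and no gene passes 2-fold between SUM159/LacZ and untransfected SUM159.

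In the rest of the prostaglandin pathway the receptor PTGER4, which signals through cyclic AMP, was low in the same array. With IRX5 it read 261, against 884 in SUM159/LacZ and 1112 in untransfected SUM159, 3.71-fold and 4.71-fold lower, and was 17th lowest of 11174 genes against the nearer control. It was the only receptor past 2-fold of 4 compared with LacZ and 3 compared with untransfected SUM159. Of all genes 1.97% and 3.37% were lower. The other E synthases were bright and stayed within 2-fold: PTGES2 read 4172 in the array labelled IRX5, against 2945 and 2788 in the LacZ and untransfected controls, and PTGES3 3557, against 3653 and 4361. The prostaglandin dehydrogenase HPGD, which inactivates prostaglandin E2, read 135, against 160.3 and 149.6, all near the limit. PTGER2 was below the limit in all 3 SUM159 arrays.

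Some pathway genes passed 2-fold against 1 control only. The phospholipase PLA2G4C read 186 in the array labelled IRX5, against 441 in SUM159/LacZ (2.65-fold lower) and 154 in untransfected SUM159. PTGR1, a reductase that inactivates prostaglandins and leukotrienes, read 733, against 1551 (2.16-fold lower) and 1199. MBOAT7, which returns arachidonic acid to phospholipids, read 442 in the array labelled IRX5, against 838 in SUM159/LacZ (1.97-fold lower) and 1065 in untransfected SUM159 (2.52-fold lower). The carbonyl reductase CBR3 read 231, against 397 (1.83-fold lower) and 680.3 (3.25-fold lower). Both were thus lower than either control by more than the yardstick. For CBR3 the controls also differed by more than the yardstick, with LacZ 1.78-fold below untransfected SUM159 (-0.83). For MBOAT7 the controls differed by less (-0.36). AKR1C3, which reduces prostaglandins and steroids, read 11329 in the array labelled IRX5 and 10483 in SUM159/LacZ, against 4070 in untransfected SUM159, so its 2.80-fold excess over the untransfected line was shared by the LacZ control. By list, 1 of 6 genes of arachidonate release was lower than LacZ, 0 of 6 other synthases, 1 of 6 transport and breakdown genes and 0 of 10 genes of the lipoxygenase list, and none was higher. Of all genes 1.97% were lower than LacZ and 1.17% higher. The median of the 6 arachidonate release genes was -0.59 against LacZ and -0.50 against untransfected SUM159, beside 0.02 and 0.01 over all genes. Below untransfected SUM159 was 1 of these 6, against 3.37% of all genes.

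Around KYNU, the other genes of tryptophan entry and breakdown were within 2-fold of LacZ in the array labelled IRX5. Of 11 genes compared with SUM159/LacZ none was 2-fold apart, against 3.14% of all genes (median 0.11, against 0.02 over all genes). The enzymes that begin the pathway, IDO1 and TDO2, were below the limit in all 8 arrays, the hydroxylase KMO was above it only in HMLE/Gcnt2 (153), and HAAO, the oxygenase after KYNU, only in untransfected SUM159 (148), HMLE/Gcnt2 (158) and HMLE/LacZ (143.4). The formamidase AFMID was dim in all 8 arrays, from 154 in SUM1315 to 219 in MDA-MB231. KYAT1, an aminotransferase that draws kynurenine to kynurenic acid, read 449 in the array labelled IRX5, against 661 in SUM159/LacZ and 603 in untransfected SUM159. Against untransfected SUM159, 3 of 12 genes were higher, beside 3.01% of all genes. They were SLC3A2 (4.48-fold) and SLC7A5 (2.29-fold), the chains of a tryptophan carrier, and the tryptophanyl-tRNA synthetase WARS1 (2.57-fold). SLC3A2 and SLC7A5 were also higher in SUM159/LacZ than in untransfected SUM159, by 3.90-fold and 2.02-fold. WARS1 was 1.59-fold higher there (log2 difference 0.67), which is more than the yardstick.

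PTGES, PTGS2 and KYNU are known to respond to interleukin-1 and NF-kB in other cells, so genes of that response are set beside them. This list was chosen with earlier results of these data known, so its counts are a description and no independent check. A link of NF-kB with the PTGES and KYNU readings was not tested. In the array labelled IRX5, 5 of 13 were at least 2-fold lower than in SUM159/LacZ, against 1.97% of all genes. Beside untransfected SUM159, 5 of 13 were lower, against 3.37% of all genes, and 1 was higher, IL1A (2.49-fold), against 3.01%. The medians were -0.51 and -0.58, against 0.02 and 0.01 over all genes. The chemokine CXCL8 read 1146, against 15557 in SUM159/LacZ and 14075 in untransfected SUM159, the lowest of all 11174 genes against the nearer control. IL6 read 200 in the array labelled IRX5, against 1858 and 414, and the NF-kB brake TNFAIP3 348, against 1507 and 895. CXCL2 was 2.38-fold and 2.90-fold lower than in the LacZ and untransfected controls. SOD2, a mitochondrial superoxide dismutase, was 2.17-fold lower than in LacZ alone, and the chemokine CCL20 4.43-fold lower than in untransfected SUM159 alone. Part of this response separated the controls too, since IL6 was 4.76-fold and IL1A 2.82-fold higher, and CCL20 3.11-fold lower, in SUM159/LacZ than in untransfected SUM159. The leukocyte markers LAPTM5 (1682, against 528 and 323) and CD14 (1072, against 426 and 179) were higher in the array labelled IRX5. The summed list was 4185, against 2498 and 1866, and LAPTM5 and CD14 made up most of it in the array labelled IRX5. CD68 (664, against 819 and 619) and LYZ (158, against 124 and 174) lay between the controls. Of 9 leukocyte markers 5 were above the limit, against 3 and 4, with LYZ and SPI1 (164) close to it. PTPRC, CD3E, ITGAM and TYROBP were below the limit in all 3 arrays. The part of other cells in these differences was not tested, and in whole cultures fewer cells of a type and less RNA per cell cannot be told apart.

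**Figure D4:**
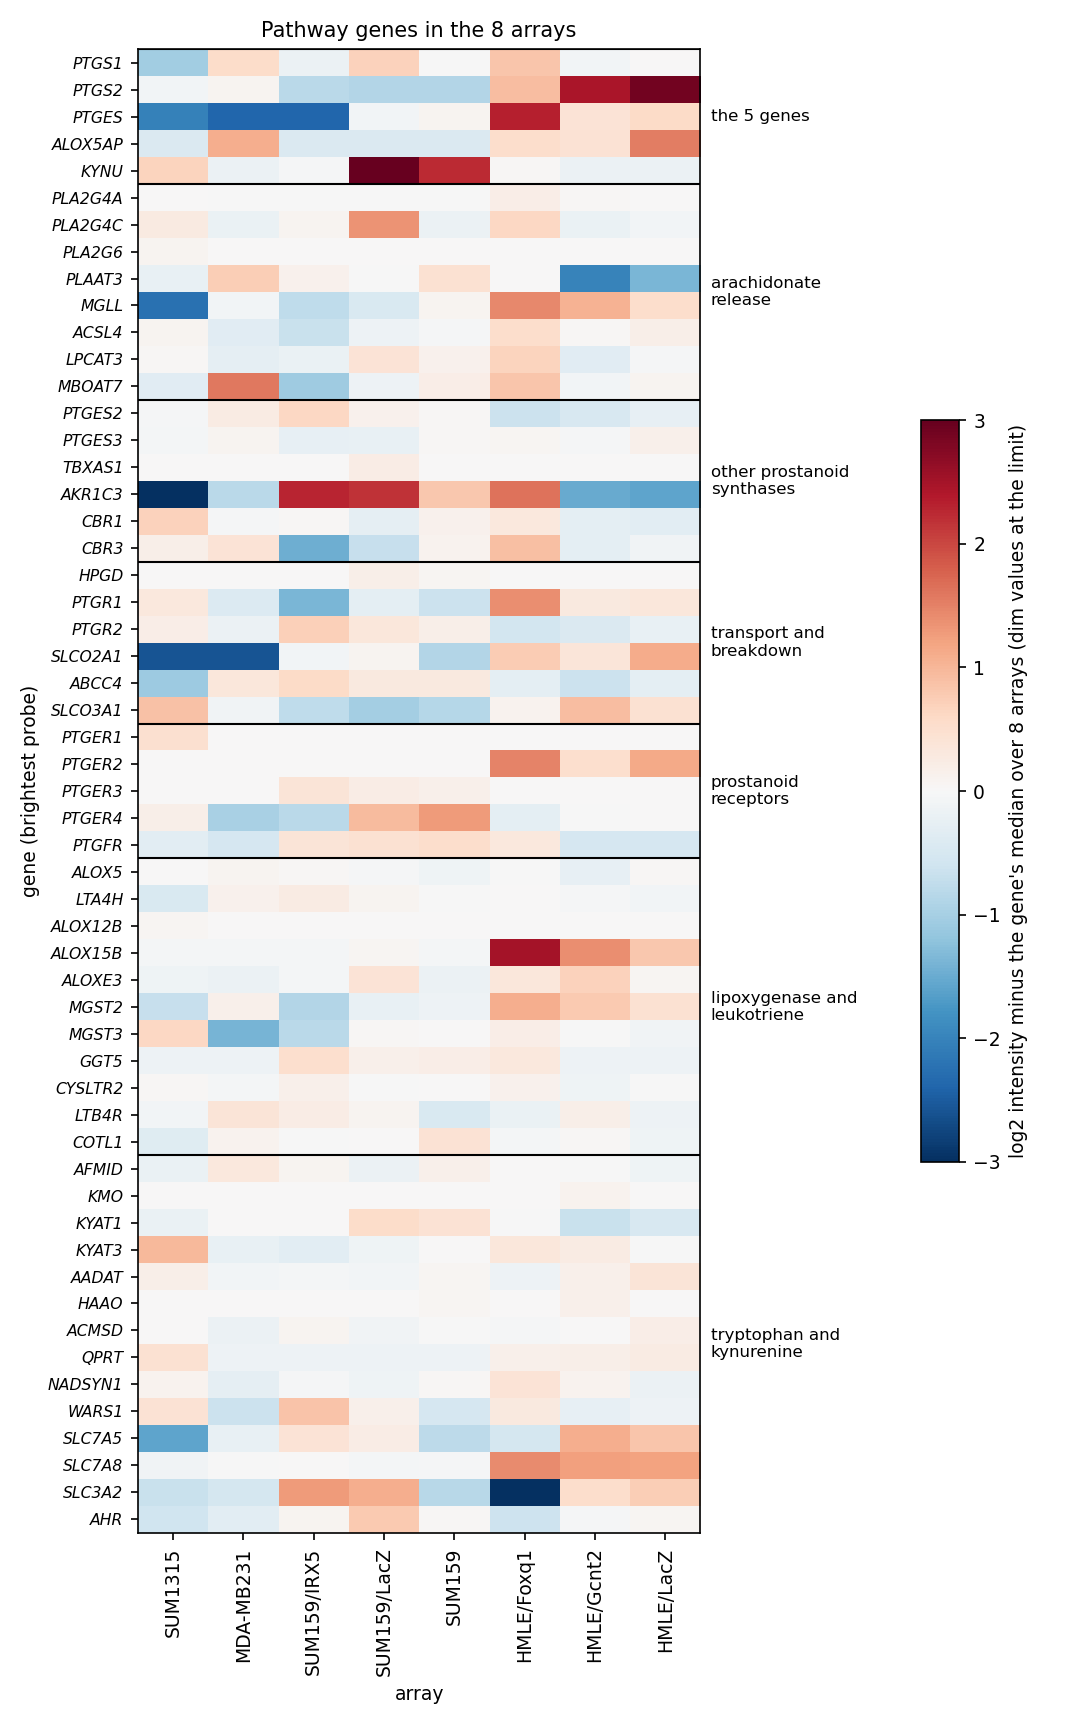
Log2 intensity of the 5 genes and of the pathway genes above the limit in at least 1 array, each minus its median over the 8 arrays (red higher, blue lower; dim values set at the limit), with rows grouped by role and arrays in columns. PTGES, PTGER4 and KYNU are low in the array labelled IRX5 beside its controls, while the tryptophan and kynurenine rows show no such drop; SLC3A2 is low in the array labelled Foxq1.

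Between SUM159/LacZ and untransfected SUM159 none of the 4 genes compared was 2-fold apart, against 3.55% of all genes (2.25% higher, 1.3% lower). The largest differences were in KYNU (0.91) and PTGS1 (0.77, 1.71-fold), both higher in LacZ. Of the pathway lists, PLA2G4C (3.33-fold), AKR1C3 (2.59-fold) and the prostaglandin carrier SLCO2A1 (2.03-fold) were higher in LacZ.

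PTGS2 and PTGES were both bright in HMLE, and with the Foxq1 label they differed from LacZ in opposite directions. In the array labelled Foxq1, PTGES was 3.45-fold higher than in HMLE/LacZ (log2 difference 1.79) and PTGS2 4.13-fold lower (-2.05), and ALOX5AP was 2.13-fold lower (-1.09). So 3 of 5 genes were 2-fold apart, against 11.8% of all genes: 1 was higher, against 6.24%, and 2 were lower, against 5.56%. PTGES ranked 100th from the top and PTGS2 130th from the bottom of 11174 genes. PTGES, PTGS2 and ALOX5AP have 1 probe each, so no second probe checks them in this array. KYNU read 166 against 127, which is at least 1.21-fold higher.

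The partners of the pathway in the array labelled Foxq1 included AKR1C3, 9.50-fold higher at 7184, against 784 in HMLE/LacZ. CBR3 (2.04-fold) was higher too, PTGR1 read 4977.4, against 2374.4 (log2 difference 1.08), and higher as well was the phospholipase PLAAT3 (2.69-fold). The receptor PTGFR was at least 2.00-fold higher and PTGER2 read 402, against 315, while the lipoxygenase ALOX15B was 3.49-fold higher, with its other probes at 1.92 and 0.06 on the log2 scale. No gene of these lists was 2-fold lower. In the tryptophan list SLC3A2 was at least 19.4-fold and SLC7A5 2.57-fold lower, and the other 11 genes compared stayed within 2-fold. AKR1C3, CBR3, PTGR1, PLAAT3, SLC3A2 and SLC7A5 have 1 probe each, so no second probe checks them in this array. The inflammatory list split, with CCL20 (3.09-fold), the receptor IL1R1 (3.04-fold), SOD2 (2.71-fold) and CSF3 (2.25-fold) higher, and the interleukin-1 antagonist IL1RN (3.82-fold) and IL1A (3.12-fold) lower, of 17 genes. Of all genes 6.24% were higher and 5.56% lower in this comparison. Of 8 mesenchymal markers 7 were above the limit in both arrays, summing to 59275 in the array labelled Foxq1, against 21356 in HMLE/LacZ. All 7 were at least 2-fold higher, among them PDGFRB (9.95-fold) and DCN (17.1-fold, its other probes at 0.50 and 0.15 on the log2 scale). The epithelial ones summed to 21604, against 44701. Of 7 compared, CLDN7 (8.84-fold), CDH1 (6.95-fold) and KRT18 (at least 5.42-fold) were lower and 0 were higher. The part of these markers in the differences was not tested.

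HMLE/Gcnt2 was set against the same HMLE/LacZ array. ALOX5AP was 2.31-fold lower (-1.21), 48th lowest of 10800 genes, and was the only one of 4 genes past 2-fold, where 0.778% of all genes were lower, 0.278% higher and 1.06% apart. Its decreases here and in the array labelled Foxq1 rest on the same HMLE/LacZ reading of 554. Those 2 arrays differed from each other by 0.12 on the log2 scale. PTGS2 was 1.37-fold lower (-0.45), PTGES 1.12-fold lower (-0.17) and PTGS1 1.07-fold lower (-0.10). All lie inside the yardstick, but that was taken from the SUM159 controls, a pair with 3.55% of genes apart. Within this HMLE pair PTGS2 was 563rd lowest of 10800 genes. The dimmer PTGS1 probe differed the other way (0.42). KYNU was below the limit in both arrays. No gene of the arachidonate, synthase, transport, receptor, lipoxygenase or tryptophan lists was 2-fold apart. In the inflammatory list TNFAIP3 (2.14-fold), IL1RN (2.08-fold) and the cytokine LIF (2.03-fold) were higher and IL6 (2.10-fold) lower. The mesenchymal markers summed to 8833 in HMLE/Gcnt2, against 21356 in HMLE/LacZ, and the epithelial ones to 61997, against 44701. Of 7 mesenchymal markers compared 4 were at least 2-fold lower, and no epithelial marker was 2-fold apart. The part of these markers was not tested.

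Among the untransfected cancer lines SUM159 had the most PTGES and KYNU and MDA-MB231 the most ALOX5AP. In SUM1315, PTGES was 4.76-fold, KYNU 3.23-fold and PTGS1 at least 2.33-fold lower than in SUM159, 3 of 4 genes, against 8.88% of all genes. None was higher, against 9.88% (18.8% apart). The dimmer PTGS1 probe was only at least 1.09-fold lower (118, against 153). In MDA-MB231, PTGES was 6.39-fold and KYNU at least 6.52-fold lower than in SUM159, 2 of 5 genes against 6.99%, while ALOX5AP was at least 3.37-fold and PTGS2 at least 2.24-fold higher, against 7.36% (14.4% apart). The other KYNU probe, above the limit in both arrays, was 4.27-fold lower in MDA-MB231 than in SUM159. Between SUM1315 and MDA-MB231, KYNU was at least 2.02-fold higher in SUM1315 (10.9% of all genes), with its other probe 0.59 higher on the log2 scale. PTGS1 was at least 3.60-fold and ALOX5AP at least 3.38-fold lower in SUM1315 (11.0%, and 21.9% apart). The dimmer PTGS1 probe was at least 1.46-fold lower there.

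Pathway genes also set the lines apart. PTGER4 read 515 in SUM1315 and 232 in MDA-MB231, against 1112 in SUM159, 2.24-fold and 5.39-fold lower, and was 2.41-fold higher in SUM1315 than in MDA-MB231. AKR1C3 read 193 in SUM1315 and 1336 in MDA-MB231, against 4070 in SUM159. SLCO2A1 was below the limit in SUM1315 and MDA-MB231, at least 3.93-fold lower than in SUM159 in each. The lipase MGLL, which frees arachidonic acid from endocannabinoid, read 121 in SUM1315, against 635 in MDA-MB231 and 706 in SUM159, at least 5.40-fold and at least 6.04-fold lower. MBOAT7 was 2.65-fold higher in MDA-MB231 than in SUM159, and 3.95-fold lower in SUM1315 than in MDA-MB231. The exporter ABCC4 was 2.95-fold lower in SUM1315 than in MDA-MB231 and 2.86-fold lower than in SUM159, while the carrier SLCO3A1 was 2.10-fold and 3.83-fold higher, with its dim second probe not following. PTGR1 was 2.00-fold higher in SUM1315 than in SUM159, PTGFR at least 2.33-fold lower in MDA-MB231 than in SUM159, and the leukotriene receptor LTB4R 2.01-fold higher there. MGST3, a microsomal glutathione transferase, was 4.08-fold higher in SUM1315 than in MDA-MB231, and 2.65-fold lower in MDA-MB231 than in SUM159. Of the leukotriene enzymes, ALOX5 stayed between 158 and 197 in all 8 arrays, LTA4H was bright in all (3569 to 5784) and LTC4S was below the limit in all.

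In the tryptophan list no gene was 2-fold apart between SUM1315 or MDA-MB231 and SUM159 (13 and 12 compared), although KYNU was. Of all genes 18.8% and 14.4% were apart. Between SUM1315 and MDA-MB231 the aminotransferase KYAT3 (2.35-fold) and WARS1 (2.13-fold) were higher and SLC7A5 (2.57-fold) lower in SUM1315. The inflammatory list differed between the lines as well. Over all genes, 7.36% were higher and 6.99% lower in MDA-MB231 than in SUM159. In SUM1315, 9.88% were higher and 8.88% lower than in SUM159, and 10.9% higher and 11.0% lower than in MDA-MB231. In MDA-MB231, 8 of 16 were higher than in SUM159, led by IL1B (log2 difference 3.72), IL6 (2.91), CXCL1 (2.46) and IL1A (1.86), and 6 were lower, led by SOD2 (15.5-fold), CCL20 (8.29-fold), CXCL2 (2.84-fold) and CXCL8 (2.25-fold). In SUM1315, 7 of 13 were lower than in SUM159 and none higher (median -1.08), led by CXCL8 (at least 125.6-fold), CCL20 (5.81-fold), TNFAIP3 (2.96-fold) and SOD2 (2.81-fold). Between SUM1315 and MDA-MB231, 8 of 16 were lower in SUM1315, led by CXCL8 (at least 55.9-fold), IL1B (at least 19.8-fold), IL6 (15.8-fold) and IL1A (at least 8.94-fold), and SOD2 (log2 difference 2.47) and CXCL2 (1.08) were higher.

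Between the 2 lines labelled LacZ, SUM159 had more KYNU and HMLE more PTGS2 and ALOX5AP. KYNU was at least 12.3-fold higher in SUM159/LacZ than in HMLE/LacZ, 1 of 5 genes against 7.93% of all genes (16.3% apart). Its other probe was at least 6.86-fold higher. PTGS2 (17.1-fold) and ALOX5AP (at least 4.67-fold) were lower in SUM159/LacZ, 2 of 5 against 8.39%. PTGES differed by -0.66 (1.58-fold lower). AKR1C3 (13.9-fold), PLA2G4C (3.09-fold), PLAAT3 (2.66-fold), PTGFR (at least 2.23-fold) and KYAT1 (2.17-fold) were higher in SUM159/LacZ, and SLCO3A1 (at least 3.25-fold), SLC7A8 (2.79-fold), PTGER2 (at least 2.54-fold), SLCO2A1 (2.07-fold) and MGLL (2.03-fold) were lower. Of the inflammatory list SOD2 (5.44-fold), TNFAIP2 (at least 3.38-fold) and IL6 (2.60-fold) were higher, and CXCL1 (at least 25.7-fold), IL1B (15.2-fold), IL1RN (at least 8.41-fold) and IL1A (6.53-fold) led 5 that were lower.

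The genes most like each member over the 8 arrays were found by Pearson's r of log2 values among 7329 genes with a range of at least 2-fold. With so few arrays, which share lines, these values are a description and carry no p. Readings below the detection limit entered every r as they were, not set at the limit. Among them were ALOX5AP in the SUM159 arrays and KYNU in HMLE/LacZ and HMLE/Gcnt2. PTGS2 was followed most closely by CNFN (r of 0.986), OSR2 (0.984) and ARHGEF3 (0.984), all brightest in the HMLE arrays. PTGES was followed by ZDHHC12 (0.962), MMP7 (0.946) and MCM5 (0.939), all highest in the array labelled Foxq1. ALOX5AP was followed by ZNF334 (0.978), SLC52A2 (0.955) and PDP1 (0.951), and PTGS1 by ATP6V1E1 (0.950), LAMP1 (0.945) and LSG1 (0.944). KYNU was followed by LACTB (0.966), ACAA2 (0.936) and EHHADH (0.928); LACTB read 1193 in the array labelled IRX5, against 2636 in SUM159/LacZ and 2140.4 in untransfected SUM159. Within the set the highest r was 0.79, between PTGS2 and ALOX5AP, and the lowest -0.67, between PTGS2 and KYNU, and PTGS2 with PTGES gave 0.46.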

How the data were processed

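Total RNA of 8 cultures was measured on 1 Illumina bead array each, grouped by the labels. The deposited table holds probe intensity on a linear scale (73.3 to 56056.2), which the authors had quantile-normalized, judged from sorted values whose coefficient of variation over the arrays was at most 1.27%. The submitters' processing notes list GenomeStudio, lumi 1.14 and R 2.11.1 without saying what each did, and no source states how background was treated. A table of unnormalized values was not used, since no label ties its 16 columns to samples. Of 24526 probes, 21834 have 1 gene symbol, none several and 2692 none; 21813 symbols were updated through Entrez numbers with RefSeq. Intensities were corrected with normexp (offset 50, limma 3.58.1, R 4.3.3) and put on a log2 scale; neqc, planned first, needs detection p-values that are not mapped here. Each gene was represented by whichever named probe had the highest mean over the arrays. The detection limit of 143 comes from intensities below their mode (110.4), mirrored at a tail of 0.01. Genes with at least 1 array of a pair above it were compared, and a dim array counted at the limit. Other steps used Python 3.11.15, and the calculations were tested on simulated data. With 1 array per group no test was made; the number of arrays limits the precision. Named genes were all probes of the set, up to 4 genes per direction of each pathway list past 2-fold, fixed partners and the 3 genes most like each member. The members and lists were chosen with earlier results of these data known. The 6 alternatives were no further background correction, an offset of 16, the mean of probes, a limit at a tail of 0.05, no limit, and cyclic loess.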

Additional observations from a re-analysis of the deposited data

How the results depend on the processing

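All 60 recounts of genes at least 2-fold apart (10 counts under 6 alternatives) stayed within 1.5 times the reported count, from 0.772 times with no further background correction to 1.44 times with an offset of 16. Of 240 recomputed differences of the 5 genes none that was at least 2-fold turned its direction, and of the 126 that started from at least 2-fold, 122 remained so. PTGES in the array labelled IRX5 ranged from -2.82 to -2.32 against LacZ and from -2.98 to -2.46 against untransfected SUM159, and KYNU from -3.87 to -3.17 and from -2.93 to -2.28. Calls were lost for KYNU between SUM1315 and MDA-MB231 (0.85 with no further correction, 0.84 with the mean of probes), PTGS2 between MDA-MB231 and SUM159 (0.98 with no further correction) and PTGS1 between SUM1315 and SUM159 (-0.68 with the mean of probes). Calls were gained for PTGS1 in the array labelled IRX5 against LacZ (-1.05 with an offset of 16) and for PTGS2 between SUM1315 and SUM159 (1.23 with that offset, 1.07 with the limit at a tail of 0.05 and with no limit). PTGS1 in HMLE/Gcnt2 became 0.16, and in the array labelled Foxq1 0.21, with the mean of probes, and PTGS2 between SUM159/LacZ and untransfected SUM159 became -0.01 with cyclic loess. Between SUM159/LacZ and HMLE/LacZ, with an offset of 16, PTGS2 moved to -4.59 and KYNU to 4.10. The genes most like KYNU kept 1 of 3 with no further correction, with the mean of probes and with cyclic loess, and those most like PTGS1 kept 1 of 3 with the mean of probes and with cyclic loess. The causes were not tested. Repeating the differences on the unnormalized table was planned and not run, since its columns are not tied to samples. No paired analysis was possible because each group has 1 array. Readings near the limit of 143, such as PTGS2 and ALOX5AP in SUM159, cannot show a decrease.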
